A study of Homo sapiens with 10 samples.

Results

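The genes described here are the members of the vascular endothelial growth factor (VEGF) system other than *VEGFA* and *VEGFC*, namely the ligands *VEGFB* and *PGF*, the receptors *FLT1*, *KDR* and *FLT4* and the co-receptors *NRP1* and *NRP2*. They were taken by symbol, each with its transcript row of the highest mean value, and made up 7 of the 27945 gene symbols of the table. RNA-Seq of total RNA depleted of rRNA had been performed on 10 libraries of EA.hy926, an established human line made by fusing HUVECs with A549, a lung carcinoma line. The groups were 3 clones with CRISPR/Cas9 deletion of *VEGFA-LNC*, a long noncoding RNA antisense to *VEGFA*, 3 clones with deletion of *VEGFC-LNC*, which lies upstream of *VEGFC*, and 2 controls for each deletion. Controls had received the gRNAs of their set without Cas9 and had passed through the same clonal selection. All groups thus share the hybrid line, the gRNA transfection and the selection. Each deletion library is 1 clonal line, and whether the 2 controls of a set came from separate cultures is not given in the sources used here, so that p-values measure the spread between these libraries. Values are FPKM, read counts scaled to transcript length and library size, on hg19, and libraries held 6743971 to 24197619 reads.

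VEGF ligands are secreted dimers that act on receptor tyrosine kinases of endothelial cells. VEGF-B and placental growth factor, the product of *PGF*, bind FLT1 (VEGFR1), which also has soluble forms that trap ligand. KDR (VEGFR2) carries most of the VEGF-A signal, FLT4 (VEGFR3) is the receptor for VEGF-C and VEGF-D in lymphatic vessels, and the neuropilins NRP1 and NRP2 have no kinase of their own and bind ligands next to these receptors as well as semaphorins.

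The cells carried endothelial markers. Of 13 endothelial marker genes, 12 passed the filter on low values, FPKM times transcript length in kilobases of at least 1 in at least 2 libraries, and *CLDN5* was at 0 in every library. *CDH5*, which encodes VE-cadherin, stood between 56.6 and 312 FPKM. Of 10 lung epithelial markers, *KRT7*, *KRT8*, *KRT18* and *MUC1* passed, *NKX2-1* was at 0, and *EPCAM* did not exceed 0.505 FPKM. Of 8 smooth muscle and fibroblast markers 4 passed, with summed levels of 20.8 to 21.1 FPKM in the *VEGFA-LNC* controls, 8.55 to 60.5 FPKM in their clones, 1.18 to 1.67 FPKM in the *VEGFC-LNC* controls and 1.61 to 19.7 FPKM in their clones, and of 6 blood cell markers only *CD68* passed. Neither deleted lncRNA had a row under its own name, so the deletions were not checked here. In the *VEGFC-LNC* set, mean *VEGFC* was 9.98 FPKM (SD 0.722, n = 2) in controls and 4.95 FPKM (SD 0.388, n = 3) in clones. Mean *VEGFA* in the *VEGFA-LNC* set was 9.90 FPKM (SD 0.398, n = 2) in controls and 5.58 FPKM (SD 1.53, n = 3) in clones.

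The windows upstream of 4 genes are shown because *PGF*, *NRP2* and *KDR* varied together between the clones, as described further on, while *FLT1* varied with them only in part. Each window is the 250 bases before the 5′ end of the gene's row, read 5′ to 3′ on the gene's strand from GRCh37, at chr14:75422468-75422717 (minus strand) for *PGF*, chr2:206546974-206547223 (plus strand) for *NRP2*, chr4:55991763-55992012 (minus strand) for *KDR* and chr13:29069266-29069515 (minus strand) for *FLT1*. Capitals mark GC boxes (GGGCGG, either strand), TATA boxes (TATAAA) and cyclic AMP response elements (TGACGTCA).

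PGF: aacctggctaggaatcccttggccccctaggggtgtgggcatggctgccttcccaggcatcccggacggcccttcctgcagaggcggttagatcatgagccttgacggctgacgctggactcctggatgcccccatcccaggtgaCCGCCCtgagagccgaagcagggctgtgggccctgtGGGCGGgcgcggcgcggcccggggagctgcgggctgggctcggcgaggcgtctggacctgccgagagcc
NRP2: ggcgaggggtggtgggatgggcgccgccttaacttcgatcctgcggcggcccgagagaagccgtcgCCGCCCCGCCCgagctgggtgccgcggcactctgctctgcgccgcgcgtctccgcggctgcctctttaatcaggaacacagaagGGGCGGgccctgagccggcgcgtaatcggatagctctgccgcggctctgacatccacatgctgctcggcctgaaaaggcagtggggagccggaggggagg
KDR: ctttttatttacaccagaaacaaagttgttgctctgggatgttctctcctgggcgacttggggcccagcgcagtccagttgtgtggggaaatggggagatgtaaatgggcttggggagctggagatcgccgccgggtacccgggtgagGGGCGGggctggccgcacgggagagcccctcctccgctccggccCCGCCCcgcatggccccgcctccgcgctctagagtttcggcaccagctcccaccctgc
FLT1: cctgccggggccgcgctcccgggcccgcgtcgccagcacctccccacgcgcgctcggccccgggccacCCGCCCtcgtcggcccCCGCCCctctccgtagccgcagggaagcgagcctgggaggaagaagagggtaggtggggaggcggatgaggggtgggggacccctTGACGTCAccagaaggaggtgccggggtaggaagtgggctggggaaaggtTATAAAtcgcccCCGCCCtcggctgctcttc

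A GC box, the letters bound by factors of the Sp1 family, was found in the windows of all 7 genes and in 42.2% of 27868 such windows. A TATA box was found in 1 of the 7 windows, that of *FLT1*, starting 31 bases before the 5′ end, and in 10.7% of all windows. The cyclic AMP response element was also found in *FLT1* alone among the 7, 81 bases before the 5′ end, and in 1.6% of all windows. Of the other motifs searched on both strands, none of the 7 windows held the core of hypoxia response elements, written ACGTG (18.2% of all windows), or the E box that contains it, written CACGTG (6.24%). Nor did they hold the AP-1 site, spelled TGANTCA (6.14% of all windows), the site of ETS factors, spelled CCGGAAG (7.42%), or that of GATA factors, spelled GATAAG (5.59%). Only these spellings were searched, so sites of the same factors spelled otherwise are not covered. The CCAAT box was in none of the 7 and in 32.4% of all windows. The 7 windows had 65.2% to 82.8% GC, against a median of 57.6% for all windows. These are matches of letters in 1 short window and show no binding.

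*PGF* was the most abundant of the 7 genes in 9 of 10 libraries and *KDR* and *FLT4* were the 2 lowest in all 10. *PGF* (NM_001207012, chromosome 14, 75408533 to 75422467, minus strand) ranged from 30.9 to 205 FPKM, with a median of 67.7 FPKM. *NRP1* (NM_001024628, chromosome 10, 33486547 to 33623833, minus strand) followed with a median of 32.2 FPKM, and *NRP2* (NM_201264, chromosome 2, 206547224 to 206608422, plus strand) with 23.9 FPKM. The ratio of *NRP1* to *NRP2* ran from 0.686 to 2.75, so these neighbours exchanged places between libraries. *FLT1* (NM_001160031, chromosome 13, 28973181 to 29069265, minus strand) and *VEGFB* (NM_003377, chromosome 11, 64002056 to 64006736, plus strand) had medians of 15.9 and 12.7 FPKM and also exchanged places. *KDR* (NM_002253, chromosome 4, 55944648 to 55991762, minus strand) had a median of 0.147 FPKM, and *FLT1* exceeded it by between 10.6-fold and 474-fold in the single libraries. *FLT4* (NM_002020, chromosome 5, 180034753 to 180076624, minus strand) had 0 to 2 reads in every library.

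**Figure D1:**
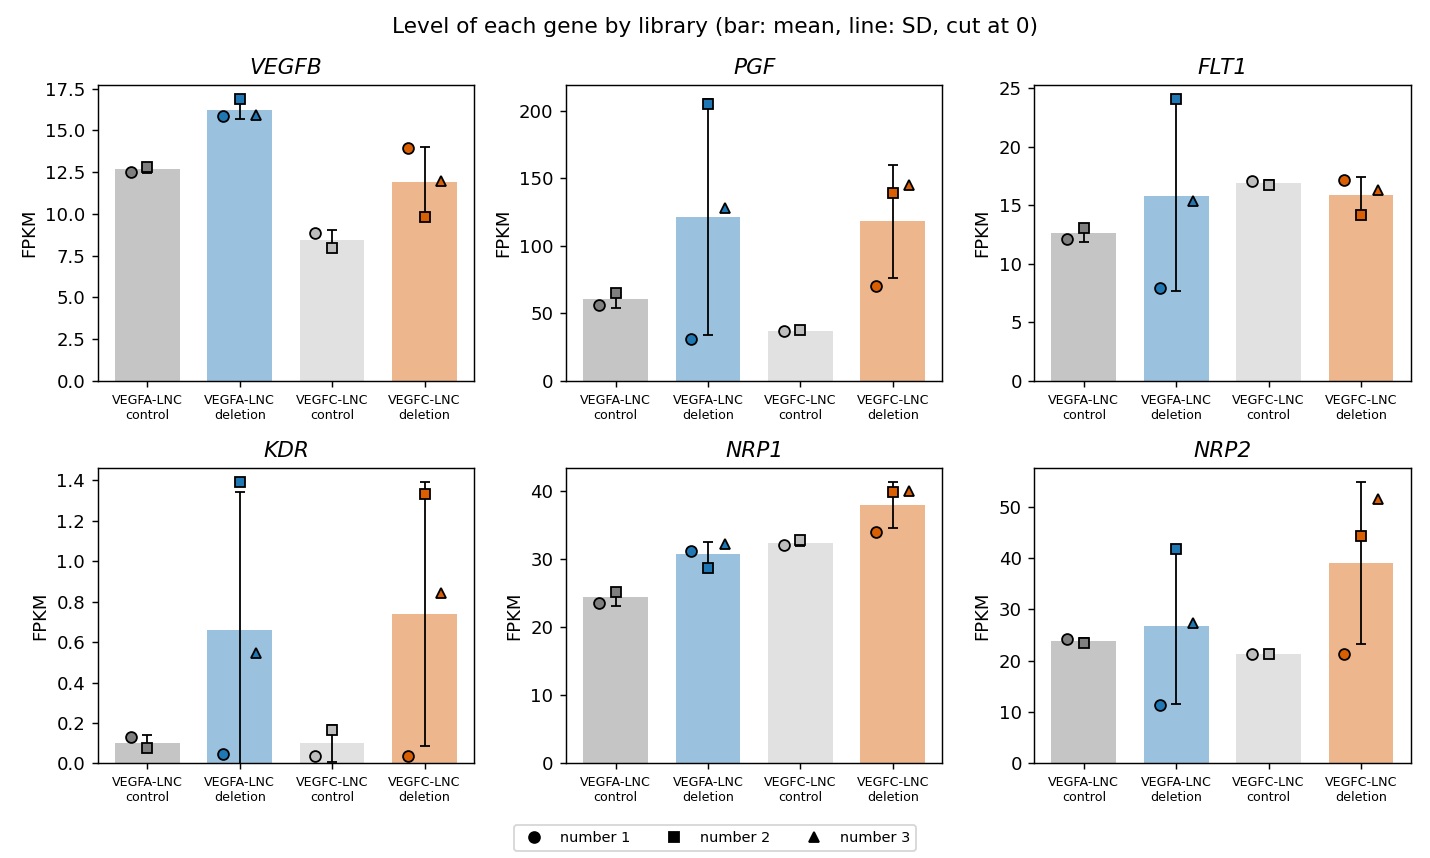
FPKM (vertical axis, from 0) of the 6 genes with measurable levels in the 4 groups, with 1 point per library, bars for group means and lines for the SD. In both deletions clone 1 is the lowest clone of its set for *PGF*, *NRP2* and *KDR*. Against controls it is not always low, since *PGF* in *VEGFC-LNC* clone 1 (70.1 FPKM) is above all 4 controls. The points of *NRP1*, and those of *VEGFB* outside the *VEGFC-LNC* clones (9.82 to 14.0 FPKM), lie close together within each group.

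To ask whether either deletion changed these genes, each set of clones was compared with its own controls in limma, on log2(FPKM + 0.1), in 1 fit of the 4 groups over 13333 tested genes. A gene was called at a false-discovery rate (FDR, Benjamini-Hochberg) under 0.05 and a fold change of at least 1.5. *FLT4* did not pass the filter on low values, and *KDR* passed it only through clones 2 and 3 of both deletions. Of the 6 members tested, 0 were called upon *VEGFA-LNC* deletion, where 2.75% of all tested genes were called, and 0 upon *VEGFC-LNC* deletion, where 0.473% were. At an unadjusted p under 0.05 the limma counts were 2 of 6 (*VEGFB* and *NRP1*) and 2 of 6 (*VEGFB* and *PGF*), against 19.8% and 18.8% of all tested genes. On the reads recovered from the table, limma voom also called 0 members in either comparison, with the same 2 and 2 at an unadjusted p under 0.05. On the rows used, all 3 clones lay above both controls for 2 of 6 members in the *VEGFA-LNC* set (15.3% of tested genes). In the *VEGFC-LNC* set they did so for 3 of 6 (17.2%). Clones lay below both controls for 0 of 6 in either set (23.7% and 30.6%). The *VEGFC-LNC* count depends on the row, since *FLT1* is not in it but would be on its full-length row, as described further on. In these bulk samples, fewer cells of a type and less RNA per cell cannot be told apart.

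**Figure D2:**
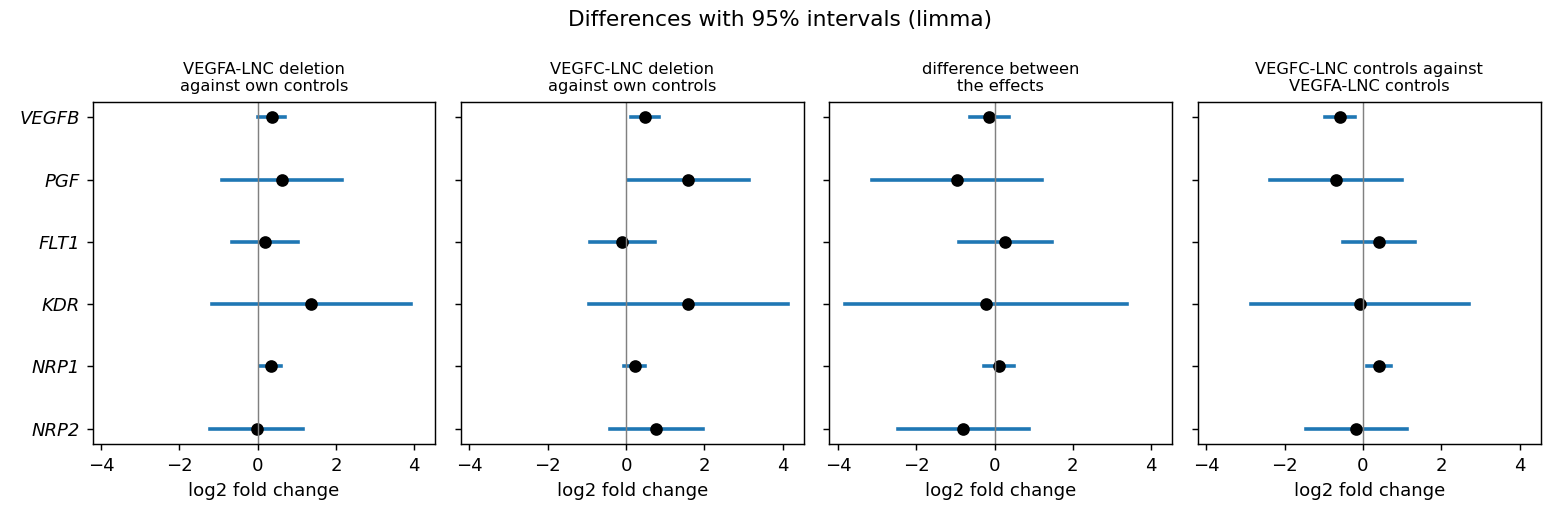
Log2 fold changes (horizontal axis; points) with 95% intervals (lines) of 6 genes in 4 comparisons of the limma fit. The intervals of *VEGFB* and *NRP1* are short and those of *PGF*, *NRP2* and *KDR* are long in every panel.

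*VEGFB* was higher in all 3 clones than in both controls in either set, by a small margin. It stood at 12.5 and 12.8 FPKM in the *VEGFA-LNC* controls and at 15.9, 16.9 and 15.9 FPKM in the clones, a log2 fold change of 0.35 (SE 0.16, 95% interval 0.0023 to 0.71, FDR 0.249 in limma). The *VEGFC-LNC* set gave 8.86 and 7.985 FPKM in the controls and 14.0, 9.82 and 11.97 FPKM in the clones, a log2 fold change of 0.48 (SE 0.16, 95% interval 0.13 to 0.84, FDR 0.174 in limma). Groups did not overlap in either set. The 2 sets themselves were set apart, the *VEGFC-LNC* controls lying below the *VEGFA-LNC* controls by a log2 difference of −0.58 (SE 0.17, FDR 0.0544 in limma). Against all 4 controls the log2 fold changes of *VEGFB* were 0.65 (FDR 0.0552) upon *VEGFA-LNC* deletion and 0.19 (FDR 0.392) upon *VEGFC-LNC* deletion in limma. Here and in all later comparisons with all 4 controls, the error is the spread within the 4 groups. The gap between the control sets does not enter that error, so these FDRs do not measure the spread among the 4 controls. Every *VEGFA-LNC* clone exceeded every *VEGFC-LNC* control, while 2 of the 3 *VEGFC-LNC* clones lay below both *VEGFA-LNC* controls.

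*NRP1*, the co-receptor for VEGF-A and class 3 semaphorins, showed the same arrangement at a higher level. Its values were 23.5 and 25.2 FPKM in the *VEGFA-LNC* controls and 31.2, 28.7 and 32.2 FPKM in the clones, with a log2 fold change of 0.33 (SE 0.12, 95% interval 0.058 to 0.60, FDR 0.178 in limma). Among the *VEGFC-LNC* libraries they were 32.1 and 32.8 FPKM in the controls and 34.0, 39.8 and 40.1 FPKM in the clones, with a log2 fold change of 0.22 (SE 0.12, 95% interval −0.050 to 0.50, FDR 0.338 in limma). Clones lay above controls without overlap in both sets, yet the margin of *VEGFC-LNC* deletion clone 1 over the higher control was small. Both *VEGFC-LNC* controls lay above *VEGFA-LNC* deletion clones 1 and 2, and they exceeded the *VEGFA-LNC* controls by a log2 difference of 0.41 (SE 0.13, FDR 0.0718 in limma). Against all 4 controls *NRP1* had a log2 fold change of 0.12 (FDR 0.507 in limma) upon *VEGFA-LNC* deletion. Upon *VEGFC-LNC* deletion it had 0.43 (FDR 0.0487 in limma), a change below the fold threshold of 1.5. The error behind this FDR leaves out the gap of 0.41 between the control sets. *VEGFB* and *NRP1* were thus the 2 of 6 tested members with all clones of both deletions above their own controls, which held for 2.63% of all tested genes, and the control sets differed in opposite directions for the 2 genes. With 3 clones and 2 controls there are 10 splits. The two-sided exact permutation p, taken by doubling the one-sided value, is 0.2 for groups that do not overlap. That is the smallest that this form of the test can give.

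*PGF*, the ligand of FLT1, ranged over 6.63-fold between the 10 libraries. It stood at 55.8 and 65.2 FPKM in the *VEGFA-LNC* controls and at 30.9, 205 and 128 FPKM in clones 1, 2 and 3. Clone 1 lay below both controls, at 0.511 times their mean, and clones 2 and 3 above them, at 3.39 and 2.11 times. The log2 fold change was 0.63 (SE 0.68, 95% interval −0.91 to 2.16, FDR 0.664 in limma). In the *VEGFC-LNC* set *PGF* stood at 36.7 and 37.8 FPKM in the controls and at 70.1, 139 and 145 FPKM in the clones, all above both controls. Here the clones reached 1.88, 3.74 and 3.90 times the control mean, and the log2 fold change was 1.59 (SE 0.68, 95% interval 0.054 to 3.13, FDR 0.256 in limma). Without *VEGFA-LNC* deletion clone 1, *PGF* was called in both comparisons by limma, with a log2 fold change of 1.42 (FDR 0.0341) upon *VEGFA-LNC* deletion and of 1.59 (FDR 0.0242) upon *VEGFC-LNC* deletion, which that library enters only through the shared spread. Upon *VEGFA-LNC* deletion the value was 0.059 (FDR 0.981 in limma) without clone 2 and 0.40 (FDR 0.851 in limma) without clone 3. Without *VEGFA-LNC* deletion clone 1, the number of all tested genes called upon *VEGFA-LNC* deletion rose from 367 to 1732. Upon *VEGFC-LNC* deletion it rose from 63 to 1158.

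*NRP2*, the co-receptor for VEGF-C, followed *PGF* from clone to clone. It stood at 24.3 and 23.5 FPKM in the *VEGFA-LNC* controls and at 11.3, 41.8 and 27.3 FPKM in clones 1, 2 and 3. The clones lay on both sides of the controls, and the log2 fold change was −0.025 (SE 0.52, 95% interval −1.21 to 1.15, FDR 0.986 in limma), a sign that turned with the median of ratios (0.032) and the 75th percentile (0.0022). Upon *VEGFC-LNC* deletion the controls were at 21.3 and 21.4 FPKM and the clones at 21.2, 44.4 and 51.5 FPKM. There clone 1 was level with the controls while clones 2 and 3 reached 2.08 and 2.42 times their mean. The log2 fold change was 0.77 (SE 0.52, 95% interval −0.41 to 1.95, FDR 0.427 in limma).

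*KDR* was near the limit of detection except in 4 clones. The *VEGFA-LNC* controls held 13 and 10 reads of *KDR* and clones 1, 2 and 3 held 4, 149 and 55 reads, which corresponds to 0.129 and 0.076 FPKM against 0.046, 1.39 and 0.545 FPKM. In the *VEGFC-LNC* set the controls held 2 and 23 reads and the clones 5, 143 and 33 reads, or 0.036 and 0.164 FPKM against 0.038, 1.33 and 0.844 FPKM. Clones 2 and 3 of both deletions stood above all 4 controls and both clones 1. The log2 fold changes, which depend on the pseudocount at these levels, were 1.37 (SE 1.12, 95% interval −1.17 to 3.92, FDR 0.549 in limma) upon *VEGFA-LNC* deletion and 1.59 (SE 1.12, 95% interval −0.95 to 4.14, FDR 0.447 in limma) upon *VEGFC-LNC* deletion. With a pseudocount of 1 they were 0.51 and 0.58, and with 0.01 they were 1.69 and 2.09. Leaving out 1 library moved them between 0.61 and 2.29 and between 0.93 and 2.62. The intervals include both no difference and a change of several-fold in either comparison.

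**Figure D3:**
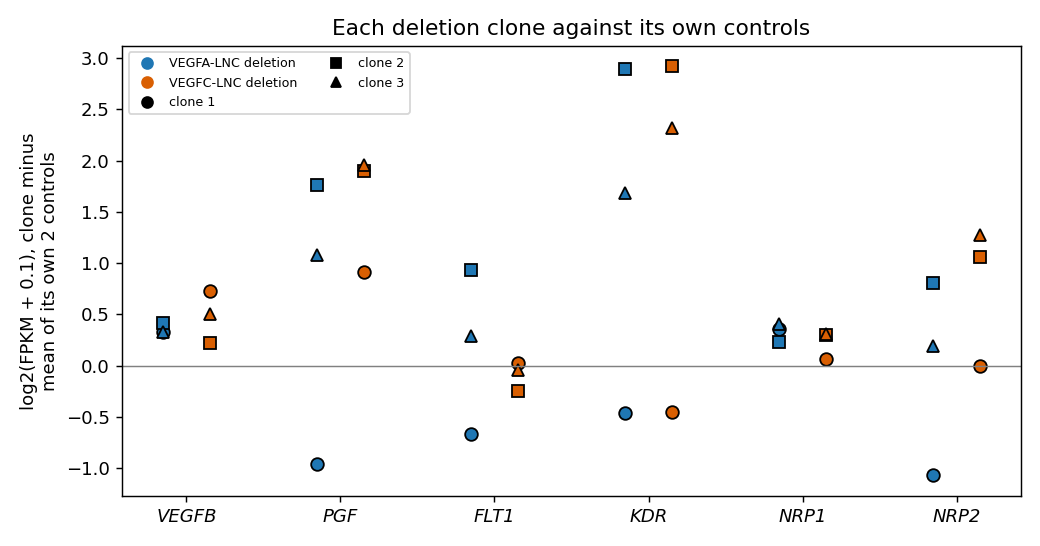
Difference of log2(FPKM + 0.1) between each deletion clone and the mean of its own 2 controls (vertical axis) for 6 genes, with colours for the deletion and symbols for the clone number. Clone 1 is the lowest of its set for *PGF*, *KDR* and *NRP2* in both deletions, and the 6 points of *VEGFB* and of *NRP1* are all above 0.

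Clone 1 was the lowest of its set in both deletions for *PGF* and *NRP2*, 2 of the 5 tested members other than *KDR*, as it was for 19.1% of all tested genes. It was also the lowest for *KDR*, which is not counted because it passed the filter only through clones 2 and 3, and its correlations carry the same limit. Over the 10 libraries, which share their clones and controls, Pearson's r of log2(FPKM + 0.1) was 0.89 between *PGF* and *KDR*, 0.87 between *PGF* and *NRP2* and 0.86 between *KDR* and *NRP2*. *VEGFB* and *NRP1* correlated with these 3 genes at between −0.066 and 0.42. The SD between clones on the log2 scale was 1.42 for *PGF*, 0.95 for *NRP2* and 1.70 for *KDR* in the *VEGFA-LNC* set, where the median tested gene had 0.29. It was 0.05 for *VEGFB* in that set, smaller than for all but 3.11% of tested genes. In the *VEGFC-LNC* set the SDs were 0.59, 0.68 and 1.80 for *PGF*, *NRP2* and *KDR*, beside a median of 0.25. Within the control pairs *PGF* and *NRP2* had SDs of at most 0.16.

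Markers of the parent cell types and of other cell types also differed between the clones. Some followed the order of these 3 genes, and others did not. The summed level of the 13 endothelial markers was 510, 1314 and 938 FPKM in *VEGFA-LNC* deletion clones 1, 2 and 3, against 708 and 722 FPKM in their controls. For *VEGFC-LNC* it was 763, 1118 and 1431 FPKM in the clones and 819 and 801 FPKM in the controls. Clone 1 was the lowest of its set in both deletions for 11 of the 12 endothelial markers that passed the filter, the exception being *TIE1*. For example, *VWF*, which encodes von Willebrand factor, was at 0.650, 8.78 and 4.74 FPKM in the *VEGFA-LNC* clones and at 0.716, 3.41 and 3.88 FPKM in the *VEGFC-LNC* clones. Clones 2 and 3 did not always exceed their controls. *EMCN* was at 0.050, 1.54 and 0.172 FPKM in the *VEGFA-LNC* clones (controls 4.83 and 5.06). In the *VEGFC-LNC* clones it was at 0.022, 0.121 and 0.184 FPKM (controls 6.39 and 6.74). Also below their controls were *TEK* in *VEGFA-LNC* clone 3 (10.7 FPKM, controls 21.3 and 21.9) and *ERG* in *VEGFC-LNC* clone 2 (18.9 FPKM, controls 26.1 and 26.3). The summed level of the 10 lung epithelial markers was instead highest in clone 1 of both deletions. It was 1314, 490 and 874 FPKM in the *VEGFA-LNC* clones (controls 1079 and 1090) and 868, 440 and 698 FPKM in the *VEGFC-LNC* clones (controls 913 and 900). Of the 4 epithelial markers that passed, the keratins *KRT7*, *KRT8* and *KRT18* were highest in clone 1 in both deletions, and *EPCAM*, *CDH1*, *KRT19*, *SFTPB*, *SFTPC* and *NKX2-1* stayed at or near 0. Clone 1 was also the lowest of its set in both deletions for *ACTA2* and *MYH11*, 2 of the 4 smooth muscle and fibroblast markers that passed, and for *PROX1* and *LYVE1*, 2 of the 3 lymphatic ones, while *RELN*, the third, was highest there. *ACTA2*, a smooth muscle actin, was at 8.11, 40.7 and 59.8 FPKM in the *VEGFA-LNC* clones and at 1.21, 4.46 and 19.0 FPKM in the *VEGFC-LNC* clones. The part of these differences between clones in the levels of *PGF*, *NRP2* and *KDR* was not tested.

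**Figure D4:**
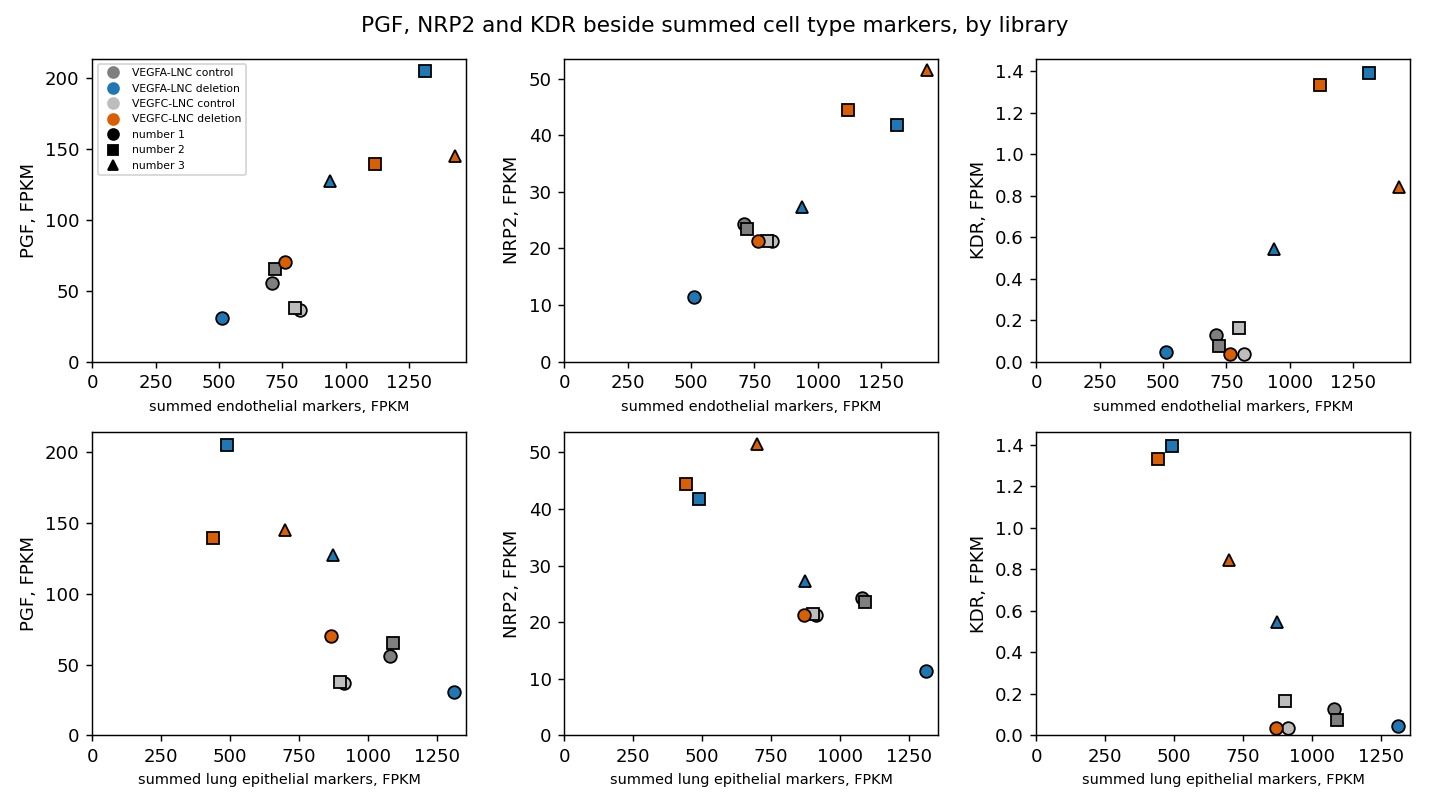
FPKM of *PGF*, *NRP2* and *KDR* (vertical axes) against the summed FPKM of 13 endothelial markers (upper row) and 10 lung epithelial markers (lower row), with 1 point per library. The 4 libraries with the most *KDR*, clones 2 and 3 of both deletions, have the 4 highest endothelial sums, and *VEGFA-LNC* deletion clone 1 has the lowest endothelial and the highest epithelial sum.

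*FLT1* was spread widely between the *VEGFA-LNC* clones, with an SD of 0.80 on the log2 scale, and narrowly between the *VEGFC-LNC* clones, with 0.14. It stood at 12.1 and 13.1 FPKM in the *VEGFA-LNC* controls and at 7.90, 24.1 and 15.4 FPKM in clones 1, 2 and 3, which resembled *PGF* in their order. The *VEGFC-LNC* set had 17.0 and 16.7 FPKM in the controls and 17.1, 14.2 and 16.3 FPKM in the clones, which surrounded the controls on the row used. The log2 fold changes were 0.19 (SE 0.37, 95% interval −0.65 to 1.02, FDR 0.823 in limma) and −0.091 (SE 0.37, 95% interval −0.93 to 0.75, FDR 0.908 in limma). The sign of the latter turned with the 75th percentile (0.0073) and with the longest transcript row (0.28).

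The table lists 4 transcript rows of *FLT1*, which share their first exons and therefore reads. The row used above ends before the part that encodes the transmembrane and kinase domains, as do NM_001160030 and NM_001159920, and NM_002019 is the full-length receptor. The full-length row had means of 10.8 FPKM (SD 0.0396, n = 2) in *VEGFA-LNC* controls and 14.0 FPKM (SD 6.70, n = 3) in their clones. In *VEGFC-LNC* controls it was at 10.8 FPKM (SD 0.131, n = 2) and in their clones at 13.2 FPKM (SD 1.16, n = 3). All 3 *VEGFC-LNC* clones (13.17, 14.349 and 12.024 FPKM) lay above both their controls (10.903 and 10.718 FPKM) on the full-length row. The log2 fold change there was 0.28 (SE 0.38, FDR 0.699 in limma). The *VEGFA-LNC* clones lay on both sides of their controls on it. The 2 control sets were level on this row, with a log2 difference of −0.0039, but not on the short row, where the *VEGFC-LNC* controls lay above by 0.42 (SE 0.40, FDR 0.510 in limma). The ratio of the short row NM_001160031 to the full-length row was 1.56 in both *VEGFC-LNC* controls and lay between 0.970 and 1.36 in the other 8 libraries. NM_001160030 and NM_001159920 also had their highest ratios in the *VEGFC-LNC* controls. How reads that fall in shared exons were counted is not given in the sources used here, and no test was made of the ratios.

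**Figure D5:**
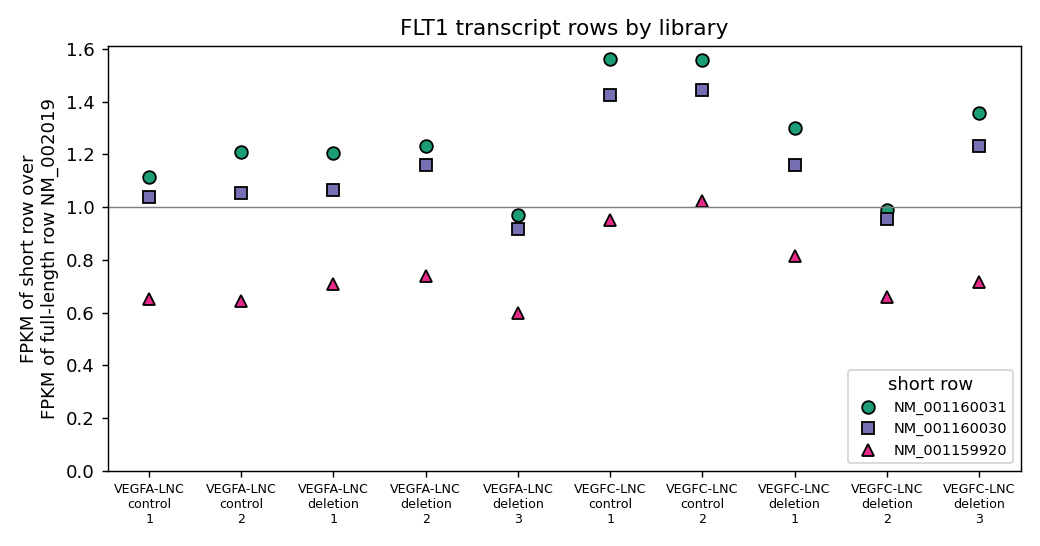
Ratio of the FPKM of each of 3 short *FLT1* rows to that of the full-length row NM_002019 (vertical axis, from 0) in each library. The 2 *VEGFC-LNC* controls have the highest ratio for all 3 short rows, up to 1.56.

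For the neuropilins the choice of row mattered less. The rows used for *NRP1* and *NRP2* also correspond to shorter forms, and their ratios to the full-length rows NM_003873 and NM_003872 ran from 1.06 to 1.14 and from 1.17 to 1.30 over the 10 libraries. The 3 rows of *PGF* gave log2 fold changes of 0.62 to 0.63 upon *VEGFA-LNC* deletion and of 1.59 upon *VEGFC-LNC* deletion.

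*FLT4* was not detected above a handful of reads. It held 2 reads in *VEGFA-LNC* control 1, 1 read in each *VEGFC-LNC* control, 2 reads in *VEGFC-LNC* deletion clone 2 and 0 reads in the other 6 libraries. A count of 0 allows up to 3 reads, which is 0.0277 to 0.0995 FPKM over the range of library sizes and covers counting error only. Of 5 lymphatic endothelial markers, *PROX1*, *LYVE1* and *RELN* passed the filter, *PDPN* was at 0, and their summed level was 10.1 FPKM in both *VEGFA-LNC* controls and between 1.28 and 9.95 FPKM elsewhere. *VEGFD*, a ligand of FLT4, likewise failed the filter, with at most 0.257 FPKM.

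The RNA ratios of *PGF* to *VEGFB* and of *NRP1* to *NRP2* differed between the clones. *PGF* exceeded *VEGFB*, which shares the receptor FLT1, by 4.14-fold to 5.10-fold in the 4 controls. The ratio was 1.95, 12.2 and 8.02 in *VEGFA-LNC* clones 1, 2 and 3 and 5.02, 14.2 and 12.1 in the *VEGFC-LNC* clones. *NRP1* stood above *NRP2* by 2.75-fold in *VEGFA-LNC* clone 1 and below it, at 0.686, 0.897 and 0.778, in *VEGFA-LNC* clone 2 and *VEGFC-LNC* clones 2 and 3. These ratios compare levels on the FPKM scale, carry the choice of transcript row and were not tested.

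Whether the deletions acted differently on the members was asked by the difference between their effects. Of the 6 members, 0 were called, beside 1.46% of all tested genes, and 0 had an unadjusted p under 0.05 in limma or limma voom. Deviations of same-numbered clones of the 2 deletions were correlated (0.55, 0.41 and 0.22), but clones 2 and 3 also correlated across numbers (0.26 and 0.18). With the replicate number as a block 0 members and 0.645% of tested genes were called. The difference (*VEGFA-LNC* minus *VEGFC-LNC*) ranged from −0.96 for *PGF* (SE 0.96, 95% interval −3.14 to 1.21) to 0.28 for *FLT1* (SE 0.52, 95% interval −0.91 to 1.46). For *VEGFB* and *NRP1* the intervals were narrower, −0.63 to 0.37 and −0.28 to 0.49. Between the 2 control sets 12.7% of tested genes were called and 0 of the 6 members, with *VEGFB* and *NRP1* under an unadjusted p of 0.05 in limma and in limma voom. Both *VEGFC-LNC* controls lay above both *VEGFA-LNC* controls for *FLT1* and *NRP1*, 2 of 6 members (33.7% of tested genes), and below them for *VEGFB*, *PGF* and *NRP2*, 3 of 6 (49.2%). *PGF* was lower in the *VEGFC-LNC* controls, by a log2 difference of −0.69 (SE 0.74, FDR 0.558 in limma), and *NRP2* by −0.16 (SE 0.57, FDR 0.874 in limma). The SEs between the control sets use the spread shared by all 4 groups. On the log2 scale *PGF* had SDs of 0.16 and 0.030 within the control pairs and 1.42 and 0.59 between the clones. For *NRP2* they were 0.034 and 0.0059 within the pairs and 0.95 and 0.68 between the clones. These FDRs thus do not show that the control sets are alike. *VEGFB* was called in the comparison of control sets when the mean over its transcript rows was used, with a log2 difference of −0.64 (FDR 0.0447 in limma).

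The rest of the VEGF pathway was followed through lists of genes grouped by function. Over all tested genes, 2.75% were called upon *VEGFA-LNC* deletion, 0.473% upon *VEGFC-LNC* deletion and 1.46% in the difference between the deletions, and 19.8%, 18.8% and 18.5% had an unadjusted p under 0.05 in limma. Together with *VEGFA* and *VEGFC*, the ligands and receptors gave 8 tested genes. Their median log2 fold change was 0.26 upon *VEGFA-LNC* deletion and 0.63 upon *VEGFC-LNC* deletion, beside −0.059 and −0.090 over all tested genes. *KDR* is among the 8 and passed the filter only through clones 2 and 3 of both deletions, so these medians carry that selection. Only *VEGFC* was called among the 8, with a log2 fold change of −0.998 (SE 0.12, FDR 0.0145 in limma) upon *VEGFC-LNC* deletion. *VEGFA* had −0.85 (FDR 0.130) upon *VEGFA-LNC* deletion and 0.999 (FDR 0.127) upon *VEGFC-LNC* deletion, and its difference between the deletions, −1.85, had an FDR of 0.0559 in limma. The control sets differed for both genes, by −1.46 (FDR 0.0172 in limma) for *VEGFA* and by −0.68 (FDR 0.0172 in limma) for *VEGFC* (*VEGFC-LNC* minus *VEGFA-LNC* controls). Against all 4 controls *VEGFA* had −0.11 and 0.27 upon the respective deletions. Of the 39 tested signal transducers below the receptors, such as *PLCG1*, the *PIK3* and *AKT* genes, 0 were called upon either deletion (5 and 1 at an unadjusted p under 0.05 in limma).

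Among 29 tested phosphatases, partners and trafficking factors of the receptors, 1 was called upon *VEGFA-LNC* deletion and 0 upon *VEGFC-LNC* deletion (2 and 4 at an unadjusted p under 0.05 in limma). The called gene was *ITGAV*, the integrin αV subunit, which fell from a mean of 79.4 FPKM (SD 1.21, n = 2) in controls to 35.4 FPKM (SD 2.25, n = 3) in clones, with a log2 fold change of −1.17 (SE 0.16, FDR 0.0120 in limma). In *VEGFC-LNC* controls the mean was 18.2 FPKM (SD 0.856, n = 2). Set against the pooled 4 controls, the *VEGFA-LNC* clones gave −0.10 on the log2 scale for *ITGAV* (FDR 0.690 in limma). Of 19 tested semaphorins, plexins and other neuropilin partners 0 were called upon either deletion (5 and 5 at an unadjusted p under 0.05), while *PLXNA2*, a plexin that signals with neuropilins, was called in the difference between the deletions, at −1.30 (SE 0.22, FDR 0.0306 in limma). Likewise, of 30 tested transcription factors of receptor and neuropilin genes 0 were called upon either deletion (4 and 6 at an unadjusted p under 0.05), and *SP1*, a factor that binds GC boxes, was called in the difference at 0.87 (SE 0.17, FDR 0.0478 in limma).

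Of 25 tested early VEGF target genes of endothelial cells, 2 fell upon *VEGFA-LNC* deletion, *RCAN1*, a calcineurin inhibitor, and *KLF4*, a transcription factor, and 1 rose upon *VEGFC-LNC* deletion, again *RCAN1* (7 and 8 at an unadjusted p under 0.05 in limma). Mean *RCAN1* was 39.0 FPKM (SD 1.20, n = 2) in controls and 10.1 FPKM (SD 0.856, n = 3) in clones of the *VEGFA-LNC* set, with a log2 fold change of −1.94 (SE 0.20, FDR 0.00377 in limma). For *VEGFC-LNC* the means were 5.86 FPKM (SD 0.162, n = 2) and 18.4 FPKM (SD 4.33, n = 3), with a log2 fold change of 1.61 (SE 0.20, FDR 0.0142 in limma). The control sets differed by −2.71 on the log2 scale, more than clones and controls in either set, and against all 4 controls *RCAN1* had log2 fold changes of −0.58 (FDR 0.109) and 0.25 (FDR 0.375) in limma. Mean *KLF4* was 3.24 FPKM (SD 0.375, n = 2) in the *VEGFA-LNC* controls and 1.17 FPKM (SD 0.381, n = 3) in the clones, with a log2 fold change of −1.43 (FDR 0.0321 in limma). *KLF4* was itself called lower in the *VEGFC-LNC* controls than in the *VEGFA-LNC* controls.

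The genes whose pattern over the 10 libraries was most like that of a member were found by Pearson's r of log2(FPKM + 0.1), as a description. For *PGF* they were *RALA*, a small GTPase (r = 0.98), *COL18A1*, whose product gives rise to endostatin (r = 0.98), and *SNORD10*, a small nucleolar RNA (r = 0.98). *NRP2* was followed most closely by *RHBDF1*, *RASSF2* and *CRIP2* (r of 0.96 to 0.97), and *KDR* by *APP*, *GNL1* and *WWTR1* (r of 0.95 to 0.97). For *VEGFB* they were *METRN*, *DERL2* and *INTS8* (r of 0.94 to 0.97), for *NRP1* *MAML2*, *ARHGEF1* and *BRWD3* (r of 0.94), and for *FLT1* *HDAC5*, *SVIP* and *CMAHP* (r of 0.93 to 0.94). The libraries share their clones and controls, and each list of likes was picked from all 13333 tested genes.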

How the data were processed

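Per the labels, EA.hy926 libraries were prepared with a directional kit and read single-end on a NextSeq instrument. The submitters' processing notes name Trim Galore (version 0.4.4), STAR (version 2.5.4b), featureCounts and the builds GRCh37 and hg19. The authors deposited FPKM values for 65572 RefSeq transcript rows on hg19. How the rows were counted, by strand or between overlapping transcripts, is not given in the sources used here, so rows of a symbol share reads and antisense reads cannot be separated. Rows without a symbol (42) were left out. FPKM multiplied by length came to whole reads for at least 99.99% of checked values in each library (tolerance 0.15 reads), which gave the depth and the input of limma voom. Depth limits *KDR* and *FLT4* above all.

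For each symbol the row with the highest mean was used, which for *FLT1*, *NRP1* and *NRP2* is a short form. Genes with FPKM times length in kilobases of at least 1 in at least 2 libraries were fitted as log2(FPKM + 0.1), with the pseudocount of 0.1 shrinking changes of low genes, by limma (version 3.58.1, R version 4.3.3; lmFit, then eBayes with a trend) in 1 fit of 4 groups. The deposited values are FPKM, so this test stands in place of the quasi-likelihood test of the paper's methods, and recovered reads entered only voom. Groups came from the sample titles. The labels give no batch. Correlations of deviations from the group means were 0.55, 0.41 and 0.22 for deletion clones 1, 2 and 3 of the 2 sets. Unlike-numbered clones 2 and 3 gave 0.26 and 0.18, and clone 1 with the others gave −0.54 to −0.30. No label pairs the clones, and clones and controls of a set did not correlate by number. Alternatives were other pseudocounts, no filter, other scalings, voom, other transcript rows, all 4 controls, averaged control pairs, a replicate block and leaving out each library. Lists and 7 genes were chosen with earlier results of these data known. Named genes were the 7 members, the 3 most similar genes of each, *VEGFA*, *VEGFC* and up to 6 called genes of each list. Markers are named beside them, some as examples chosen after their values were seen. The fit was tested on simulated data. Python (version 3.11.15), numpy (version 2.4.6), pandas (version 2.3.3), scipy (version 1.17.1) and matplotlib (version 3.10.9) did the rest.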

Additional observations from a re-analysis of the deposited data

How the results depend on the processing

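Over 24 pairs of a member and a comparison and 492 alternative values, 469 kept their direction and their side of the threshold, 20 changed direction and 3 passed the threshold. The changes of direction concerned *FLT1*, *NRP2* and *KDR*, and the cause was not tested. Against all 4 controls, *FLT1* had −0.025 upon *VEGFA-LNC* deletion and 0.12 upon *VEGFC-LNC* deletion, and *NRP2* had 0.057 upon *VEGFA-LNC* deletion. The median of ratios gave 0.032 for *NRP2* upon *VEGFA-LNC* deletion, and the 75th percentile 0.0022 for it and 0.0073 for *FLT1* upon *VEGFC-LNC* deletion. With the longest transcript row *FLT1* had 0.28 upon *VEGFC-LNC* deletion, −0.056 for the difference between the deletions and −0.0039 between the control sets. On voom, *KDR* had 0.54 for the difference and 0.059 between the control sets. Leaving out 1 library moved *FLT1* between −0.19 and 0.61 and *NRP2* between −0.44 and 0.50 upon *VEGFA-LNC* deletion, *FLT1* between −0.095 and 0.70 and *KDR* between −1.24 and 0.70 for the difference, and *KDR* between −0.56 and 0.40 between the control sets. The number of members called was 0 to 1 upon either deletion when 1 library was left out, the 1 being *PGF* without *VEGFA-LNC* deletion clone 1, and 0 for the difference and between the control sets. With the mean over transcript rows 1 member, *VEGFB*, was called between the control sets. Without *VEGFA-LNC* deletion clone 1, *VEGFC-LNC* deletion clone 1 or *VEGFC-LNC* deletion clone 2, its FDR there was 0.0341, 0.0343 and 0.0326 in limma. In these fits its log2 difference of −0.584 lay just short of the fold threshold. Clones and controls of a set are not paired by their number (correlations of −0.043 to 0.047), and the replicate block called 0 members in each comparison, with 151 instead of 367 genes upon *VEGFA-LNC* deletion and 20 instead of 63 upon *VEGFC-LNC* deletion.

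The number of all tested genes called moved too, and a count over so few members cannot be compared with it. Genes called upon *VEGFA-LNC* deletion numbered 6 to 1732 when 1 library was left out, 616 without the filter, 551 on voom, 161 against all 4 controls and 0 with control pairs averaged. Upon *VEGFC-LNC* deletion they numbered 5 to 1158, 547 against all 4 controls and 1 with control pairs averaged. For the difference they numbered 5 to 694, 452 without the filter and 0 with control pairs averaged, and between the control sets 33 to 3068 and 0. The low ends came without 1 control, where the lone control is assumed to vary like the other groups, and the high ends without *VEGFA-LNC* deletion clone 1. Median-of-ratios scaling moved the median gene between the control sets from −0.11 to −0.0052 and the calls from 389 higher and 1301 lower to 580 and 917, and upon *VEGFC-LNC* deletion from 20 and 43 to 39 and 42.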

Other observations

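Between the control sets 12.7% of all tested genes were called, 1301 lower and 389 higher of 13333. Genes of the lists were among them, and the lists were not tested against that share. Signal transducers below the receptors gave 2 of 39 tested genes, *MAP2K1* and *SH2D2A*, lower in the *VEGFC-LNC* controls, and 0 higher. Of 19 tested semaphorins, plexins and other neuropilin partners, 4 were lower in the *VEGFC-LNC* controls than in the *VEGFA-LNC* controls, namely *PLXNA3*, *PLXNB3*, *SEMA3G* and *SEMA7A*, and 0 were higher. *SEMA7A*, a membrane-anchored semaphorin, stood at 0.364 ± 0.0580 FPKM (SD, n = 2) against 1.84 ± 0.111 FPKM (SD, n = 2), a log2 difference of −2.07 (SE 0.30, FDR 0.00660 in limma). Of 29 tested phosphatases, partners and trafficking factors, 3 were lower in the *VEGFC-LNC* controls, namely *ITGAV*, *ITGB3* and *SPRY2*, and 0 were higher. *ITGB3*, the integrin β3 subunit that pairs with αV, stood at 18.8 ± 0.267 FPKM (SD, n = 2) against 52.5 ± 2.83 FPKM (SD, n = 2), a log2 difference of −1.48 (SE 0.33, FDR 0.0252 in limma). Of 25 tested early VEGF targets, 6 were lower and 0 higher, and *CXCL8*, the gene of interleukin-8, stood at 1.07 ± 0.202 FPKM (SD, n = 2) against 33.1 ± 0.0311 FPKM (SD, n = 2), a log2 difference of −4.83 (SE 0.86, FDR 0.0125 in limma). Of 30 tested transcription factors, *NR2F1*, which is active in venous endothelium, was higher (8.94 ± 0.292 against 4.74 ± 0.119 FPKM, SD, n = 2 each) and *HEY2*, a Notch target, was lower.

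Medians of the log2 fold changes of tested genes within 5 Mb of each of the 7 members ran from −0.11 to 0.036 upon *VEGFA-LNC* deletion, beside −0.059 over all tested genes, and from −0.14 to 0.13 upon *VEGFC-LNC* deletion, beside −0.090. The highest values upon *VEGFC-LNC* deletion were 0.13 over 207 genes around *VEGFB* and 0.13 over 70 genes around *PGF*. Between the control sets the lowest was −0.28 around *VEGFB*, beside −0.11 over all tested genes. No test was made of these medians.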
